A study of Mus musculus with 2 samples.

Results

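The genes described here encode the enzymes that build purine and pyrimidine nucleotides, move one-carbon units on folate and make polyamines. They were named by pathway, 33 in all, by a rule that uses no measured value, although earlier results of these data were known when the names were chosen. Of these, 30 had at least 1 probe set that the platform annotation assigned to that gene alone, out of 18193 genes so represented on the array. Where a gene had several, the one with the highest mean level over the 2 arrays stands for it. Level means log2(intensity + 1) throughout, and every difference is Wnt3a minus control on that scale. A gene counted as measured where its probe set reached a level of 6, an intensity of 63, on at least 1 array. All 30 genes did, as did 11397 genes in all.

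The comparison is of 2 conditions, with 1 array each. One array held RNA from primary myoblasts of newborn Sv129 mice given Wnt3a at 100 ng/ml for 4 hours in DMEM with 2% horse serum. The other held RNA from control myoblasts of the same strain kept for 4 hours in the same medium without Wnt3a. Both cultures were grown on laminin and collagen, and the number of mice behind each is not given in the labels. Wnt3a is a secreted ligand that stabilises β-catenin, and the comparison asks which transcripts differ after a short exposure to it. With 1 array a condition there is no replicate error, no test and no p-value for any gene, and the number of arrays limits the precision.

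Nucleotides are made either from small precursors (de novo synthesis) or by salvage of free bases and nucleosides. De novo purine synthesis assembles the ring on ribose phosphate and takes formyl groups from folate, while pyrimidine synthesis builds the ring first and then attaches it to ribose phosphate. Polyamines are small, positively charged molecules made from ornithine and needed for growth. Dividing cells such as myoblasts draw on all of these pathways for DNA and RNA synthesis, and the transcription factor MYC is known in many cell types to activate several of the genes.

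Most of these transcripts were slightly lower on the Wnt3a array, and none differed by 1.5-fold. Of the 30 genes, 22 were lower and 8 higher with Wnt3a, against 51.2% lower and 47.3% higher among all 11397 measured genes. Among the 3411 genes with a mean level of at least 10, 55.2% were lower. The median difference of the 30 genes was -0.081, against -0.0057 for all measured genes, and the members ranged from -0.27 for Ctps to 0.23 for Tyms. The 1.5-fold count of 0 in 30 stands beside a background of 1.23% of measured genes in either direction, 0.342% lower and 0.886% higher. Only Ctps reached 1.2-fold, where 4.55% of measured genes were that much lower and 4.04% that much higher.

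Group by group, purine genes were lower in 10 of 11 cases (median -0.088) and pyrimidine genes in 9 of 12 (median -0.096), and both polyamine genes measured were lower. Folate genes were higher in 4 of 5 cases, with a median of 0.051, but all 5 differences were within the 0.12 SD between probe sets described below. With the second-brightest probe set, over the 4 folate genes that have one, that median was -0.027. All these signs are relative to the bulk of genes, as the deposited arrays had been brought to a common scale. The 42 spike-in control probe sets were all lower on the Wnt3a array, by a median of 0.19 in size, and scaling on them would lift the median of all measured genes to 0.18. The purine median would then be 0.10, the pyrimidine median 0.093, the polyamine median 0.049 and the folate median 0.24. The first 3 of these medians therefore change sign under that scaling but stay below the median of all genes, and folate stays above it.

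The differences, Wnt3a minus control, of probe sets of 1 gene had a pooled SD of 0.12, over 5084 genes with at least 2 measured probe sets. It covers noise between probes only, not between cultures or hybridisations. In all, 9 members were lower by more than this SD and 1 was higher, where the background was 19.5% and 16.0% of measured genes. Counting every measured probe set of the members, 49 of 66 were lower (74.2%), against 52.2% of 19760 over all genes. Of the 20 members with at least 2 measured probe sets, 11 had all of them lower and 2 all higher, where 31.2% and 23.5% of such genes did so over the whole array. For purine genes this was 6 of 6 lower, and 21 of their 22 probe sets were lower. In a bulk culture, fewer cells of a type and less RNA per cell cannot be told apart.

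**Figure D1:**
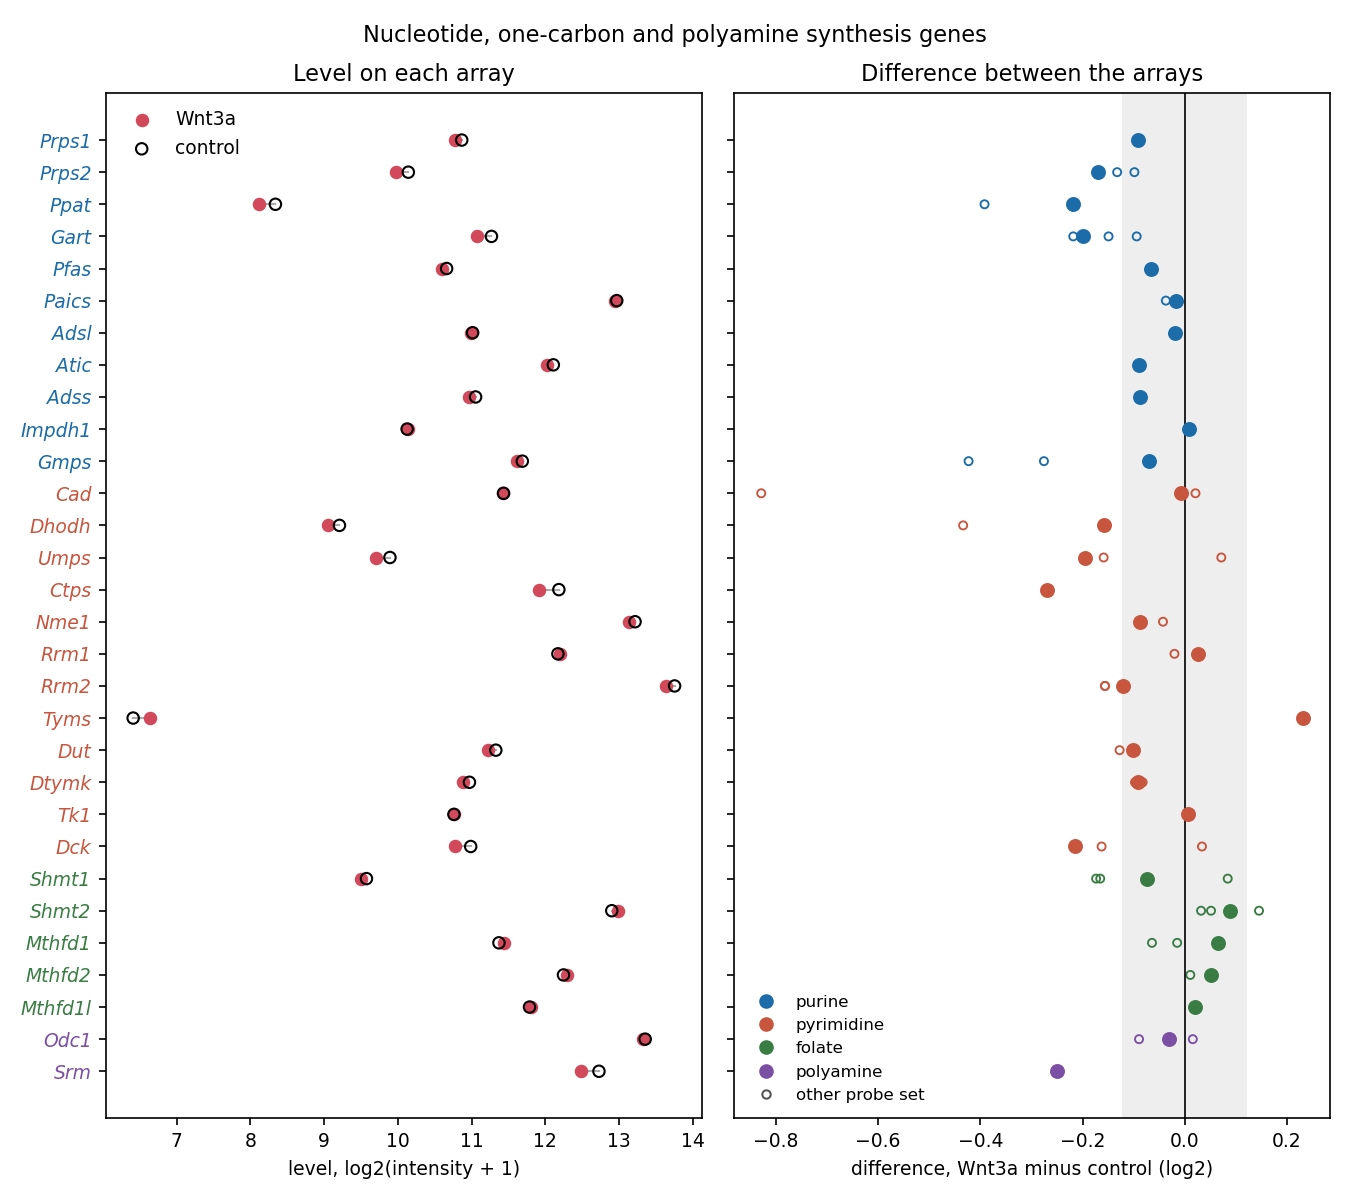
The left panel plots the level, log2(intensity + 1), of each of the 30 genes on the Wnt3a array (filled) and the control array (open). The right panel plots the difference, Wnt3a minus control, of the brightest probe set (filled) and of the gene's other measured probe sets (open circles), coloured by step, with a grey band of 1 pooled SD between probe sets (0.12) on each side of 0. Points of the purine genes lie left of 0 except Impdh1, and 4 of the 5 filled folate points lie right of it.

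The sequences below are promoter windows of 300 bases, from 250 bases before to 50 after the annotated start, from RefSeq on GRCm38.p6, and are shown because the purine and pyrimidine genes were mostly lower together. A window was in the table for 30 of the 33 genes, Impdh2, Amd1 and Sms included but not Srm, Pfas and Dhodh. The E-box CACGTG, which MYC with its partner MAX is known to bind and which reads the same on both strands, is in capitals. Ppat and Paics are shown as neighbours that face each other, Atic and Nme1 as genes with an E-box close to the start, and Ctps as the gene with the lowest difference.
Ppat, chr5:76951529-76951828, minus strand: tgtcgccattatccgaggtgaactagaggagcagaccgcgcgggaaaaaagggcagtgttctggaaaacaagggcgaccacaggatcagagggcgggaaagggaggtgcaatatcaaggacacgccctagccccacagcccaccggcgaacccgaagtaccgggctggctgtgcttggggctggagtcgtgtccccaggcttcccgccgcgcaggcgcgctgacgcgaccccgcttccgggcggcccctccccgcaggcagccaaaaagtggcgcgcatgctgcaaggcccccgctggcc
Paics, chr5:76951052-76951351, plus strand: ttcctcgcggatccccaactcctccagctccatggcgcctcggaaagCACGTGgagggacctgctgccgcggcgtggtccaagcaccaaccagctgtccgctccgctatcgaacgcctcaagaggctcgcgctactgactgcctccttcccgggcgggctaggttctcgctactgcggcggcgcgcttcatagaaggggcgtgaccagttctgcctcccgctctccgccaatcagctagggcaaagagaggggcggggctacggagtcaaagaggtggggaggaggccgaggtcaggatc
Atic, chr1:71556906-71557205, plus strand: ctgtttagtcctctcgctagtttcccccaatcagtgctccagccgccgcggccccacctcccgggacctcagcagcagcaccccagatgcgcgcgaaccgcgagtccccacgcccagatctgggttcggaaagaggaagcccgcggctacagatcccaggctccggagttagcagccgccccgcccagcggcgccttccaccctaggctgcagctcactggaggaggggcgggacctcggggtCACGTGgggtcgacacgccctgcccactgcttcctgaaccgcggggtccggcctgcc
Nme1, chr11:93968223-93968522, minus strand: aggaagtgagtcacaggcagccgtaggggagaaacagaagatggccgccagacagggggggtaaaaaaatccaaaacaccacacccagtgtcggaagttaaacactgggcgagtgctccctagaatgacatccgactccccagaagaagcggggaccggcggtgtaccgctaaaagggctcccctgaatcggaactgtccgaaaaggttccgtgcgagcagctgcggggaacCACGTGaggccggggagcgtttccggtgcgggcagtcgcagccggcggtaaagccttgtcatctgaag
Ctps, chr4:120570227-120570526, minus strand: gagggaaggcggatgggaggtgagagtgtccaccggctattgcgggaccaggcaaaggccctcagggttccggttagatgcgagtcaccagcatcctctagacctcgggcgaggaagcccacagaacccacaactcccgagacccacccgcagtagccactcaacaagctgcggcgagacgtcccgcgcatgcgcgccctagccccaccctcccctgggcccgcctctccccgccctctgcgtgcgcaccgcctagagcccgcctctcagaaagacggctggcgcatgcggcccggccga

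An E-box lay in a window of 7 of the 30 genes (23.3%), against 8.09% of 27025 genes in the whole table. These were Paics, Atic, Impdh2, Dtymk, Nme1, Tyms and Sms. Member windows had a median GC content of 60.8%, against 52.7% for all windows, and the part of base composition in this share was not tested. In Atic the motif began 7 bases before the start, and in the Nme1 window printed above it began 18 bases before it. Of the measured genes with an E-box, Atic differed by -0.089, Nme1 by -0.087, Dtymk by -0.092 and Paics by -0.018, while Tyms, near the floor, differed by 0.23. Of the members lower by about 0.20 or more, Ctps, Ppat, Dck, Gart and Umps had no E-box in these windows, and Srm (-0.25) had no window. Any link between an E-box and the size of a difference was not tested. The β-catenin partner motif CTTTGAT (TCF/LEF) and the E2F motif TTTGGCGC, sought on both strands, were in none of the members' windows and in 3.73% and 0.514% of all windows. The NF-Y motif CCAAT was in the windows of 40.0% of the member genes and of 41.1% of all genes. By their letters an E-box shares no base with CCAAT or CTTTGAT, while the E2F motif holds CCAA, part of the NF-Y motif, on its other strand. A match describes only the letters of these windows.

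The first purine steps held the larger purine differences. Ppat, which encodes the amidotransferase of the committed step, was at 8.12 on the Wnt3a array and 8.34 on the control array, a difference of -0.22. Its second probe set gave -0.39, so that both were lower, and 7.19% of measured genes had a lower difference than the first. Gart, a single protein that holds 3 of the enzyme activities of the pathway, was at 11.07 with Wnt3a and 11.27 in the control, a difference of -0.20. All 4 Gart probe sets were lower, from -0.22 to -0.094. Ribose phosphate is activated for these steps by the PRPP synthetases, and Prps2 was at 9.97 with Wnt3a and 10.14 in the control (-0.17, and -0.10 to -0.17 over 3 probe sets), while Prps1 was at 10.77 with Wnt3a and 10.87 in the control (-0.092).

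The remaining steps to IMP, the first finished purine, differed less. Paics, a fused carboxylase and synthetase, was at 12.95 with Wnt3a and 12.97 in the control, and its 3 probe sets lay between -0.037 and -0.014. Ppat and Paics start 276 bases apart on opposite strands in the RefSeq table, and their differences of -0.22 and -0.018 were of unlike size. Pfas, the glutamine-dependent synthase of the fourth reaction, was at 10.60 with Wnt3a and 10.66 in the control. Adsl, a lyase used both on the way to IMP and from IMP to AMP, was at 11.00 with Wnt3a and 11.01 in the control, within 0.02 of no difference. Atic, which adds the last carbon and closes the ring, was at 12.02 with Wnt3a and 12.11 in the control, with -0.089 and -0.090 on its 2 probe sets. All 6 genes from Ppat to Atic were lower, where 51.2% of all measured genes were. Only Ppat and Gart were lower by more than the SD between probe sets, where 19.5% of measured genes were.

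From IMP the path divides into AMP and GMP. On the AMP side Adss, the adenylosuccinate synthase, was at 10.97 with Wnt3a and 11.05 in the control (-0.088, 1 probe set). On the GMP side Impdh1, an IMP dehydrogenase, was level, at 10.13 on the Wnt3a array and 10.13 on the control array (0.0075), and it was the only purine gene not lower. Gmps, the GMP synthase, was at 11.62 with Wnt3a and 11.69 in the control (-0.069), but its dimmer probe sets gave -0.42 and -0.28. The mean over its 3 probe sets was -0.26, so the size of the Gmps difference depends on the probe set, while the sign does not. Impdh2, usually the main dehydrogenase of dividing cells, had no probe set of its own in the annotation and was not analysed here.

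Pyrimidine synthesis up to CTP was lower at 3 of its 4 genes by more than the SD between probe sets. Of all measured genes, 19.5% were lower by more than that SD. Ctps, the CTP synthase, was at 11.91 with Wnt3a and 12.18 in the control, 1.21-fold lower on a single probe set. This was the lowest value of all members, and 4.30% of measured genes were lower still. Umps, which makes UMP in its last 2 reactions, was at 9.70 with Wnt3a and 9.89 in the control (-0.20), with -0.16 on its second probe set and 0.071 on another that was near the floor. Dhodh, the mitochondrial dehydrogenase of the pathway, was at 9.05 with Wnt3a and 9.21 in the control (-0.16), and its second probe set was at 8.17 with Wnt3a and 8.60 in the control (-0.43). Cad, the large enzyme of the first 3 reactions and a textbook MYC target, was level at 11.43 on both arrays. Of its other probe sets 1 gave 0.021 and a dim one gave -0.83, at 6.53 with Wnt3a and 7.36 in the control.

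Genes that make deoxynucleotides were mixed. Rrm2, the ribonucleotide reductase subunit that limits DNA precursor supply in S phase, was at 13.63 with Wnt3a and 13.75 in the control (-0.12, and -0.16 on both other probe sets). Its partner Rrm1 was level, at 12.20 with Wnt3a and 12.17 in the control, with -0.020 on another probe set. Dck, the deoxycytidine kinase of the salvage route, was at 10.77 with Wnt3a and 10.99 in the control (-0.22), with -0.16 and 0.034 on its other probe sets. Tk1, the S-phase thymidine kinase, was level at 10.77 with Wnt3a and 10.76 in the control.

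The thymidylate branch and nucleotide phosphorylation showed small differences on bright probe sets. Dut, which destroys dUTP and yields the precursor of dTMP, was at 11.23 with Wnt3a and 11.33 in the control (-0.10, and -0.13 on its other probe set). Dtymk, the dTMP kinase, was at 10.88 with Wnt3a and 10.97 in the control, and its 3 probe sets lay between -0.097 and -0.082. Nme1, a nucleoside diphosphate kinase, was at 13.13 with Wnt3a and 13.22 in the control (-0.087, and -0.043 on its other probe set). All probe sets of these 3 genes were lower, none by 1.2-fold. Tyms, the thymidylate synthase, was the highest of the members, at 6.64 with Wnt3a and 6.41 in the control (0.23). That probe set lay just above the floor, its 3 other probe sets were below the floor on both arrays, and a further probe set that the annotation shares with the pseudogene Tyms-ps was not used.

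Folate genes were higher on the brightest probe set in 4 of 5 cases, by small amounts. Shmt2, the mitochondrial serine hydroxymethyltransferase that feeds one-carbon units into the pathway, was at 12.99 with Wnt3a and 12.90 in the control (0.089), and all 4 of its probe sets were higher, from 0.032 to 0.15. Mthfd2, the mitochondrial dehydrogenase and cyclohydrolase, was at 12.30 with Wnt3a and 12.25 in the control (0.051, and 0.011 on its other probe set). Mthfd1l, which releases formate in mitochondria, was at 11.81 with Wnt3a and 11.79 in the control (0.021, 1 probe set). The 3 mitochondrial enzymes thus had no probe set that was lower, although each difference was within 0.12 on the brightest one.

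The cytosolic folate enzymes had probe sets of both signs. Shmt1, the cytosolic counterpart of Shmt2, was at 9.50 with Wnt3a and 9.58 in the control (-0.074), and its 4 probe sets ran from -0.17 to 0.084. Mthfd1, the trifunctional cytosolic enzyme that supplies formyl folate to purine synthesis, was at 11.44 with Wnt3a and 11.37 in the control (0.066), with -0.064 and -0.015 on its other probe sets. The folate median of -0.027 on the second-brightest probe set, a setting added once the data had been seen, rests on 4 genes and leaves out Mthfd1l, which has 1 probe set.

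Of the 4 polyamine genes, 2 were measured. Odc1, the ornithine decarboxylase that makes putrescine and a textbook MYC target, was at 13.32 with Wnt3a and 13.35 in the control (-0.032), with -0.090 and 0.016 on its other probe sets. Srm, the spermidine synthase, was at 12.48 with Wnt3a and 12.73 in the control (-0.25), 1.19-fold lower on its single probe set. Of measured genes, 5.19% had a lower difference than Srm. Amd1, which makes the aminopropyl donor, had no probe set of its own, and the 3 probe sets of the spermine synthase gene Sms are shared with its pseudogene in the annotation, so neither was analysed here.

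**Figure D2:**
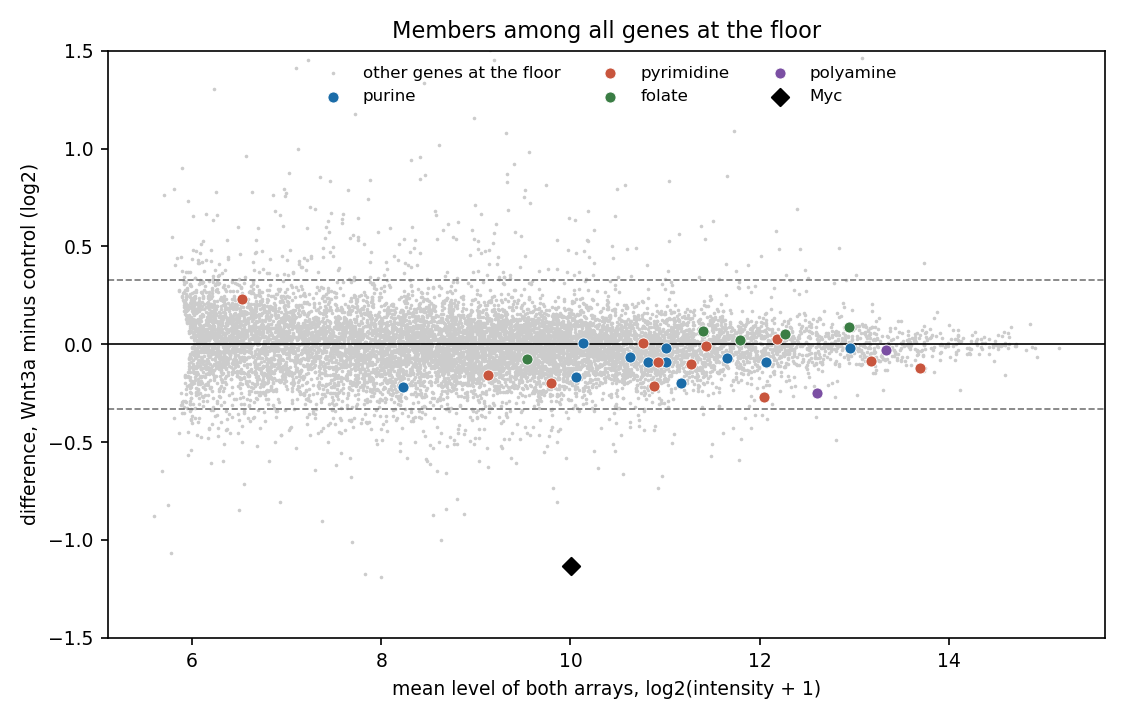
Each point is 1 of the 11397 measured genes, with the mean level of both arrays on the x axis and the difference, Wnt3a minus control, on the y axis. Members are coloured by step, Myc is a black diamond, dashed lines mark the central 95% of measured genes (-0.33 to 0.33), and 19 genes beyond 1.5 in size are not drawn. All members lie within the dashed lines.

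All 30 members lay within the central 95% of measured genes. Among genes with a mean level of at least 10, where the central 95% ran from -0.26 to 0.25, Ctps lay just outside and Srm just inside. Myc, whose product activates many of these genes in other settings, was at 9.44 with Wnt3a and 10.58 in the control, a difference of -1.13 on 1 probe set. Its relative Mycl was lower on all 3 of its probe sets (-0.46 on the brightest), and Mnt, a repressor that also pairs with MAX, was lower too (-0.28). Mycn, named after its value was seen, went the other way, at 7.32 with Wnt3a and 7.07 in the control (0.25), and its other probe sets were below the floor. Of the 10 genes of the MYC and MAX network 6 were lower, with a median of -0.080, where 51.2% of all measured genes were lower. Cad and Odc1, named above as textbook MYC targets, were at -0.0065 and -0.032 on the brightest probe set. Other probe sets gave 0.021 and -0.83 for Cad and -0.090 and 0.016 for Odc1. Cad and Odc1 do not stand for the other members. Of all 30 members 22 were lower and 8 higher, from -0.27 (Ctps) to 0.23 (Tyms). Which of them respond to MYC in these cells was not tested. Of 24 genes of DNA replication and S-phase entry, which draw on the same nucleotides, 20 were lower, with a median of -0.078. Among all measured genes 51.2% were lower, and among those with a mean level of at least 10, 55.2% were. Some of the 24 genes lay below that level. The largest differences were those of Orc1 (-0.44, with 0.053 on a second probe set), Cdc6 (-0.35) and Ccne2 (-0.29). Orc1 and Ccne2 were dim, at 7.14 and 7.10 with Wnt3a. Gins2 (0.10), Mcm3 (0.036), Lig1 (0.032) and Fen1 (0.0076) were higher. The part of Myc or of cell cycle state in the members' differences was not tested.

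Myoblast transcripts were present on both arrays, and several of them differed by more than any member. Of 12 myoblast markers 10 were measured, 5 lower and 5 higher, and their summed intensity was 45896 with Wnt3a and 45527 in the control. Vcam1, an adhesion molecule, was at 9.97 with Wnt3a and 10.60 in the control (-0.63), and all 3 of its probe sets were lower. Myog, a factor of differentiation, was at 9.61 with Wnt3a and 10.11 in the control (-0.50), and the integrin gene Itga7 was lower as well (-0.26). Myf5, a determination factor, was at 12.45 with Wnt3a and 11.96 in the control (0.49), and Des, which encodes desmin, was higher (0.32). Myod1 (-0.13), Pax7 (-0.12, and 0.12 on its other probe set), Cdh15 (0.024), Ncam1 (0.061) and Chrna1 (0.061) differed less.

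Few markers of other cells were measured, and over all measured genes 51.2% were lower with Wnt3a. Of 11 fibroblast markers 3 were measured and all were lower, with a summed intensity of 11187 with Wnt3a and 12920 in the control. Col3a1 was at 13.19 with Wnt3a and 13.42 in the control (-0.24, and -0.54 on its other probe set). Col1a2 differed by -0.074 and Pdgfrl by -0.0060. Below the floor on both arrays, Pdgfra differed by -0.047, Dcn by 0.11 and Lum by 0.19. Of 10 leukocyte markers 4 were measured, near the floor, and all were lower on the brightest probe set. Their summed intensity was 346 with Wnt3a and 386 in the control. Lyz2 passed the floor only on the control array (5.96 with Wnt3a, 6.16 in the control), so it could only be lower. Laptm5 and Csf1r had other probe sets that were higher. Most leukocyte markers below the floor on both arrays were higher, Ptprc (0.29) and Cd68 (0.35) among them, and Cd14 was lower (-0.016). Of 10 endothelial markers 3 were measured, with a summed intensity of 318 with Wnt3a and 359 in the control. Among them Tek was at 5.34 with Wnt3a and 6.16 in the control (-0.82). Tek passed the floor only on the control array, so it could only be lower, and it held most of the difference between the sums. Pecam1 and Cdh5 were below the floor. The 3 measured of 6 Schwann cell markers summed to 355 with Wnt3a and 351 in the control. The part of cell state or cell makeup in the members' differences was not tested.

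Other genes of the same pathways were listed by function, 107 in all, and 77 were measured. Of these 49 were lower and 28 higher (63.6% lower, against 51.2% of all measured genes), with a median of -0.042. None reached 1.5-fold, where the background was 1.23%. In pyrimidine salvage and interconversion, 14 of 19 measured genes were lower, with a median of -0.062. Dctd, the dCMP deaminase that supplies dUMP, was at 8.30 with Wnt3a and 8.61 in the control (-0.31). Rrm2b, the reductase subunit used outside S phase, was at 8.10 with Wnt3a and 8.34 in the control (-0.24), and Cmpk1, the UMP and CMP kinase, was at 11.08 with Wnt3a and 11.31 in the control (-0.23). Uck2, a uridine and cytidine kinase, was lower on all 6 of its probe sets (-0.23 to -0.074), and the mitochondrial thymidine kinase gene Tk2 was lower on its single probe set (-0.18). Cda, the cytidine deaminase, was higher (0.18) at a level of only 6.04 with Wnt3a and 5.87 in the control. It passed the floor only on the Wnt3a array, so it could only be higher.

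Purine salvage and breakdown genes were lower in 12 of 18 measured cases (median -0.047), against 51.2% of all measured genes. Ak3, a mitochondrial kinase for GTP and AMP, was at 11.59 with Wnt3a and 11.35 in the control (0.25), and all 3 of its probe sets were higher. Pnp, the purine nucleoside phosphorylase, was at 11.66 with Wnt3a and 11.84 in the control (-0.18). The ecto-5'-nucleotidase gene Nt5e was higher (0.16), and Ada, the adenosine deaminase, lower (-0.092) at a level near the floor. Nt5c2 was lower on the brightest probe set (-0.13) and on 3 of its 4 measured probe sets. The remaining one (0.31) passed the floor only on the Wnt3a array, so it could only be higher. Ak4 was lower on the brightest probe set (-0.12), and of its 4 measured probe sets 2 were lower and 2 higher.

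Genes around the folate cycle were lower in 13 of 20 measured cases (median -0.055), against 51.2% of all measured genes. The 5 folate members had a median of 0.051. Mat2b, a regulatory subunit of methionine adenosyltransferase, was at 10.66 with Wnt3a and 10.93 in the control (-0.28). Slc19a1, the reduced folate carrier, was at 10.05 with Wnt3a and 10.26 in the control, and all 3 of its probe sets were lower (-0.27 to -0.21). Dld, shared by the glycine cleavage system and the 2-oxoacid dehydrogenases, was lower (-0.22), as was Mtrr, which reactivates methionine synthase (-0.16). Aldh1l2, a mitochondrial formyl folate dehydrogenase, was at 10.30 with Wnt3a and 10.11 in the control (0.19). Slc25a32, the mitochondrial folate carrier, was at 8.66 with Wnt3a and 8.47 in the control (0.20), with -0.12 on another probe set.

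Among genes of polyamine regulation and breakdown, 10 of 20 measured were lower (median 0.0012), against 51.2% of all measured genes. Oaz2, an antizyme that inhibits ornithine decarboxylase and sends it to degradation, was at 11.15 with Wnt3a and 10.92 in the control (0.23), and its 3 probe sets were all higher, from 0.18 to 0.34. Oaz3, an antizyme best known from testis, was at 6.39 with Wnt3a and 6.11 in the control (0.28), near the floor. Enoph1 of the methionine salvage pathway (-0.18), the transporter gene Atp13a3 (-0.17), Eif5a2 (-0.15), a factor that carries the polyamine-derived hypusine, and Dhps (-0.12), an enzyme that makes hypusine, were each lower on both of their measured probe sets.

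**Figure D3:**
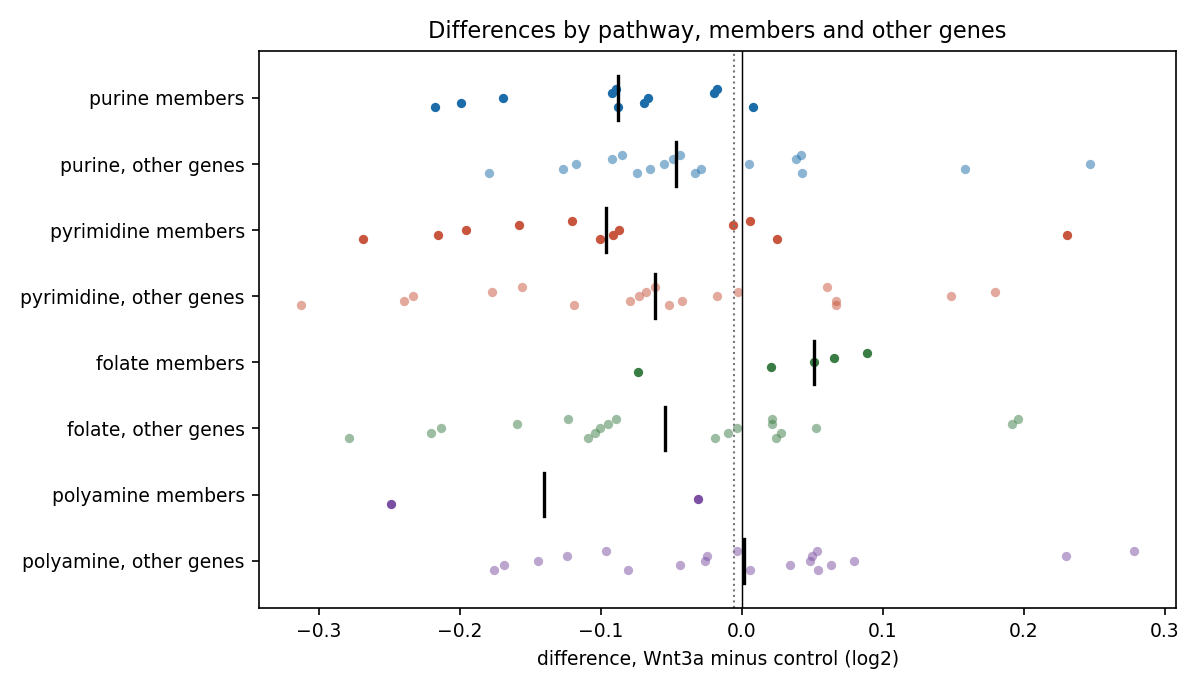
Differences, Wnt3a minus control on the log2 scale, of the measured genes of each pathway are plotted for members (dark) and for other genes of the pathway (pale), with a black bar at each median and a dotted line at the median of all measured genes (-0.0057). The folate members (median 0.051) and the other folate genes (median -0.055) lie on opposite sides of 0, and both purine and both pyrimidine rows have medians below it.

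**Figure D4:**
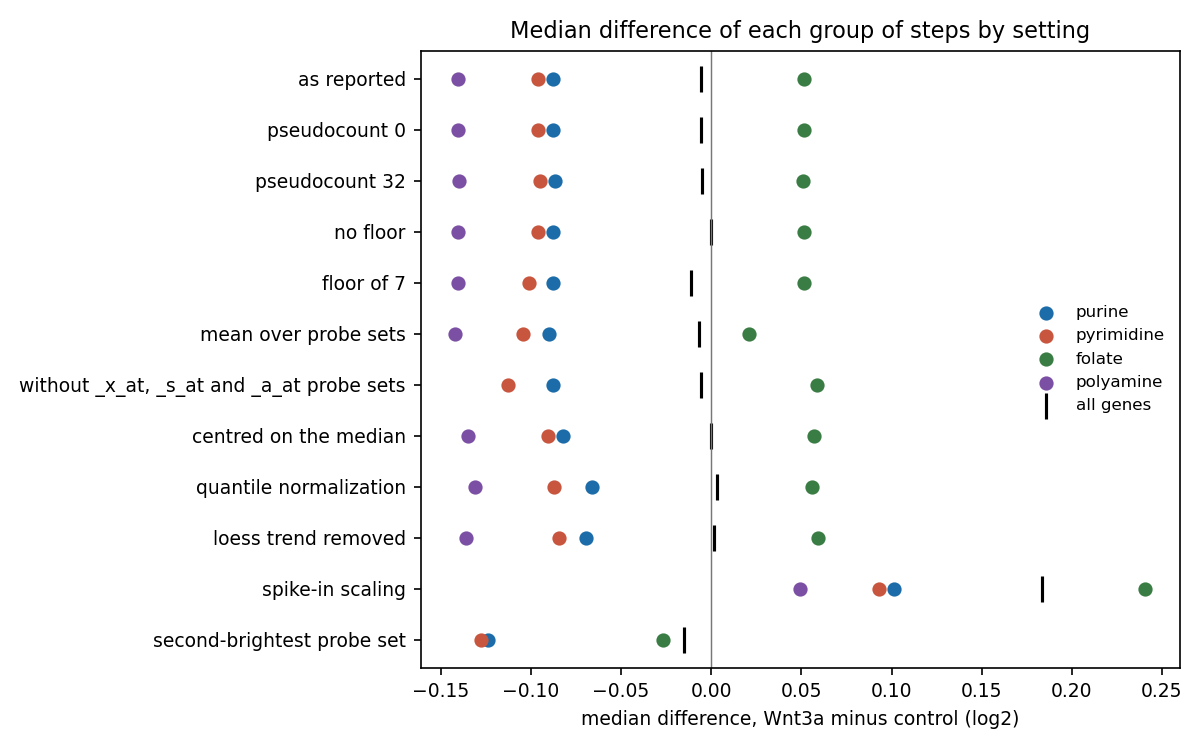
Median difference, Wnt3a minus control on the log2 scale, of each group of steps (coloured points) and of all measured genes (black ticks) is plotted for the values as reported and for 11 other settings. Purine and pyrimidine points lie left of the tick in each row where they are drawn, and folate points lie right of it except with the second-brightest probe set.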

How the data were processed

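Gene expression was measured on 2 Affymetrix arrays, 1 per condition, from Trizol-extracted total RNA labelled with a 3′ in vitro transcription kit, per the labels' protocols. The authors deposited 1 intensity per probe set and array, and the submitters' processing notes name limma, RMA and affy without versions or order. The deposited intensities were linear (7.07 to 36604 with Wnt3a, 7.09 to 37075 in the control), and the step that made them linear is not stated in those notes. RMA equalises arrays, so a shift shared by all genes would not show.

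Levels are log2(intensity + 1), and a pseudocount of 1 shrinks differences of dim probe sets slightly. Of 45101 probe sets, 34945 belong to 1 gene in the platform annotation, 932 to several and 9160 to none, and 64 are controls. RefSeq (GRCm38.p6) held the Entrez identifier of all 30 members with the same symbol, and no gene coordinates were taken from it beyond the promoter windows and their start sites. No test was possible with 1 array a group. Alternatives changed the pseudocount (0, 32), the floor (none, 7), the probe set, the normalization (loess span 0.3) and the fold counted. All members are named, with up to 6 genes of each other pathway list and 3 of the MYC and replication lists by size of difference. The members and lists were chosen with earlier results of these data known. The calculation was also run on simulated data with known differences and independent noise per probe set. Such a run checks the arithmetic only and cannot show errors shared by an array or a culture. The computing environment was Python 3.11.15 with numpy 2.4.6, pandas 2.3.3, statsmodels 0.14.6 and matplotlib 3.10.9.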

Additional observations from a re-analysis of the deposited data

How the results depend on the processing

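With 1 array per condition no value here has a replicate error, and the differences of most members are within the noise between probe sets. Under both other pseudocounts, both other floors, the mean over probe sets, omission of probe sets with possible matches to more than 1 transcript, centring, quantile normalization and loess, the medians of all members and of the purine, pyrimidine and folate steps kept their sign, as did the polyamine median where it could be computed. Leaving those probe sets out removed both polyamine genes. Scaling on the spike-in controls gave medians of 0.11 for all members, 0.10 for purine and 0.093 for pyrimidine genes. The polyamine median was then 0.049 and the folate median 0.24. Under this scaling 6 members were lower and 24 higher, where 9.89% of all measured genes were lower. The median of all measured genes was 0.18, since this scaling adds the same amount to every gene. With the second-brightest probe set, chosen after seeing the data, the folate median was -0.027, and the cause was not tested. In that setting 17 of 20 members were lower and 3 higher, where 53.2% of 5084 genes were lower. Counting from 1.2-fold gave 1 lower member. As a mean over probe sets, Gmps (-0.26), Cad (-0.27) and Dhodh (-0.30) moved by more than 0.12, the SD between probe sets. No paired analysis was possible because each condition has 1 array.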

Other observations

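Some members with several probe sets were lower by more on one other than the brightest. Other probe sets of Cad (-0.83), Dhodh (-0.43), Gmps (-0.42 and -0.28) and Ppat (-0.39) held the lowest values among the members' probe sets. The brightest probe sets of the same genes gave -0.0065, -0.16, -0.069 and -0.22. On the control array the second Ppat probe set was the brighter one (8.37 against 8.34). In genes lower on the brightest probe set, some other probe sets were higher, those of Shmt1 (0.084), Umps (0.071), Dck (0.034), Cad (0.021) and Odc1 (0.016). All of these genes were picked after their values were seen.

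Mitochondrial folate genes, grouped by compartment after the values were seen, were all slightly higher with Wnt3a on the brightest probe set. The 7 genes were Shmt2, Mthfd2, Mthfd1l, Mthfd2l, Aldh1l2, Slc25a32 and Mtfmt, with differences from 0.021 to 0.20 and a median of 0.052. Over all measured genes 47.3% were higher. Slc25a32 had another measured probe set at -0.12. As the group was formed from these values, the count is no result about the compartment. Other mitochondrial genes tied to this route were not higher. Sfxn1, a mitochondrial serine carrier, differed by -0.11, and Gcsh and Dld of the glycine cleavage system by -0.0097 and -0.22.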
